A study of Mus musculus with 6 samples.

Results

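The genes described here are Ly86, which encodes MD-1, its receptor partner Cd180, and 8 genes of Toll-like receptor recognition (Ly96, Cd14, Tlr1, Tlr2, Tlr4, Tlr7, Tlr9 and Myd88). They were measured in sorted pre-granulocyte-macrophage progenitors (PreGMs) on Affymetrix mouse gene arrays. All 10 genes were found, each by 1 probe set annotated to that gene alone, among 19937 genes in all. The family was chosen from the largest difference between the genotype labels in these same arrays, which was that of Ly86, so the differences of its members between the labels are given as a description with no test.

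Toll-like receptors recognise conserved microbial molecules, such as lipopolysaccharide, lipopeptides and nucleic acids, and pass the signal through the adaptor MyD88 or TRIF to NF-κB and interferon regulatory factors. MD-1 and MD-2 (Ly96) are small lipid-binding proteins that sit on the ectodomains of RP105 (Cd180) and TLR4. RP105 resembles TLR4 outside the cell but has no signalling domain within it, and needs MD-1 to reach the surface of B cells and myeloid cells. Haematopoietic progenitors are known to carry some of these receptors before they mature.

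The comparison set PreGMs of 3 mice labelled Cebpa flox/flox;Mx1Cre against PreGMs of 3 mice labelled Cebpa flox/flox, and its stated subject is the deletion of Cebpa, the gene of a transcription factor needed to form granulocyte-macrophage progenitors. All 6 mice were female, on the C57BL/6 strain, carried the floxed Cebpa alleles and had been given pIC, a synthetic double-stranded RNA that TLR3 recognises. Bone marrow was taken 18 days after the injection. No age is stated for the mice in the sources used here. Mx1Cre is a Cre transgene that interferon switches on in many cell types, not in blood progenitors alone. The gate was lineage-negative, Sca1-negative and Kit-positive, without CD150, CD41, FcγRII or endoglin.

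Values are on a log2 scale, so that a difference of 1 unit is a doubling. Mean values over all genes had quartiles at 5.63 and 8.07 and a median of 6.64. The correlation of arrays across genes, which are not independent replicates, was 0.992 to 0.995 for arrays sharing a label and 0.984 to 0.990 otherwise. Cebpa itself was higher in the arrays labelled Mx1Cre, at 8.71, 9.31 and 8.98, than in those labelled flox/flox, at 6.93, 6.71 and 6.85 (2.17 ± 0.14 log2 units, SE, limma adjusted p = 2.65e-05). That goes against a loss of Cebpa under these labels. Probes outside the deleted segment could keep a signal, but that alone does not account for a higher one. Probe positions were not used here, and the cause was not tested. All directions given are those of the deposited labels, and they would turn if the labels were exchanged. Among the antigens of the gate, Kit averaged 10.6 ± 0.084 in the arrays labelled Mx1Cre and 10.5 ± 0.090 in those labelled flox/flox (SD, n = 3 each), and Slamf1, which encodes CD150, lay below the lower quartile. Itga2b (CD41) and Eng (endoglin) lay above the median of all genes, though the gate excludes both proteins. They differed by -0.33 and -0.05 log2 units and did not pass (limma adjusted p = 0.108 and 0.881). Ly6a (Sca1) had no probe set of its own. Of the Fcγ receptor genes, Fcgr2b was higher by 0.43 and Fcgr3 fell by 1.04 log2 units in the arrays labelled Mx1Cre (limma adjusted p = 0.0410 and 0.00970).

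Ly86 was the member that set the labels apart, and its partner Cd180 did not follow it. Ly86 read 9.71, 9.99 and 9.75 in the arrays labelled Mx1Cre, against 6.03, 6.10 and 5.82 in those labelled flox/flox. The labels did not overlap, and the lowest Mx1Cre array stood 3.61 log2 units above the highest flox/flox array. Ly86 was therefore higher by 3.83 ± 0.11 log2 units (SE), which is 14.2-fold, with means of 9.81 ± 0.15 in the Mx1Cre arrays and 5.98 ± 0.15 in the flox/flox arrays (SD, n = 3 each). In the flox/flox arrays the probe set was between the lower quartile and the median of all genes, where this kind of summary pulls values towards a floor.

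Cd180 was bright on every array. It read 10.59, 10.31 and 10.39 in the arrays labelled Mx1Cre and 10.67, 10.69 and 10.80 in those labelled flox/flox. All 3 Mx1Cre values lay below all 3 flox/flox values, by as little as 0.08 log2 units, and the difference was -0.29 ± 0.10 log2 units (SE). The receptor gene was thus lower by 1.22-fold where the gene of its small partner was 14.2-fold higher. Cd180 lay above the upper quartile of all genes under both labels. Brightness of different probe sets depends on their probes, so it does not rank the transcripts of Ly86 and Cd180 against each other.

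The promoter windows of this receptor pair are shown because the genes encode partner proteins and lie on the same chromosome. The window of the lysosomal protease gene Ctss is added because Ctss rose in the arrays labelled Mx1Cre, as given below. Lbp and Unc93b1 also rose, but no window was found for either, so Ctss does not stand for them. Each window shown is the 250 bases before a RefSeq transcript start (build GRCm38.p6), in lower case with motif matches in capitals.
Ly86, chr13:37345095-37345344, plus strand: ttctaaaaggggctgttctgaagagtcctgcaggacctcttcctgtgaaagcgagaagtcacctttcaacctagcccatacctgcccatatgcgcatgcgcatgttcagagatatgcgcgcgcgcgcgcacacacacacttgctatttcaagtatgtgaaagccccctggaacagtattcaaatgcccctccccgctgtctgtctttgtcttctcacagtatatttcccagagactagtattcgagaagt
Cd180, chr13:102693297-102693546, plus strand: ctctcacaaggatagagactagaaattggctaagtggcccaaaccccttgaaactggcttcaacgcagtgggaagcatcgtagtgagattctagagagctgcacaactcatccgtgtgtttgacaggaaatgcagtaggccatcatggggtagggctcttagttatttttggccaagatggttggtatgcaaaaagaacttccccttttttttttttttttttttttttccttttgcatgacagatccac
Ctss, chr3:95526536-95526785, plus strand: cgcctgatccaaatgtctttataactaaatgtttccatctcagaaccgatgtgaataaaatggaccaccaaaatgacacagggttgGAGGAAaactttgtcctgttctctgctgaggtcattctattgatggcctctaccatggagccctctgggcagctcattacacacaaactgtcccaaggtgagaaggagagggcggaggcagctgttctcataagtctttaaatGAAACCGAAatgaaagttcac

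Both strands were searched for TTGCNNAA, a C/EBP motif, GAGGAA, a core of PU.1 and other ETS factors, and GAAANNGAA, an interferon regulatory factor motif, none of which overlap in these windows. Of all 32851 promoter windows of the same length, 9.56% held the C/EBP letters, 23.3% the ETS letters and 7.13% the interferon regulatory factor letters. The Ly86 window held none of the 3, nor did either of the 2 Cd180 windows, of which 1 is printed. The Ctss window held GAGGAA once, beginning 164 bases before the start, and GAAACCGAA once, beginning 21 bases before it. Windows were found for 6 of the 10 members: Ly86, Cd180, Tlr1, Tlr2, Tlr9 and Myd88. Of the other members with a window, Myd88 held GAAAGCGAA, beginning 40 bases before its start, Tlr9 held GAGGAA at 112 bases and 1 of 2 Tlr1 windows held GAGGAA at 23 bases. The C/EBP letters occurred in none of the members' windows. A match is a description of letters, and a window without them says nothing of a factor's binding.

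The other genes of lipopolysaccharide recognition were dim, and their values overlapped between the labels. Ly96, which encodes the MD-2 subunit that binds lipopolysaccharide on TLR4, read 5.61, 6.35 and 6.33 in the arrays labelled Mx1Cre and 5.81, 6.50 and 6.02 in those labelled flox/flox. Its difference of -0.011 ± 0.22 log2 units (SE) was small beside the spread of either label. So within the MD-1 and MD-2 pair of proteins, the gene of MD-1 carried a large difference and that of MD-2 none beyond its spread.

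Tlr4, the receptor chain itself, read 5.53, 6.03 and 6.12 in the arrays labelled Mx1Cre and 5.67, 5.86 and 5.66 in those labelled flox/flox. The lowest and the 2 highest of these 6 values were all Mx1Cre arrays, and the difference was 0.16 ± 0.15 log2 units (SE). Cd14, the membrane-anchored protein that hands lipopolysaccharide to MD-2, read 5.78, 5.82 and 5.55 in the arrays labelled Mx1Cre and 5.31, 5.35 and 5.84 in those labelled flox/flox. Its highest value was flox/flox replicate 3, and the difference of 0.22 ± 0.14 log2 units (SE) was smaller than with that array left out. Without it the difference was 0.39, the highest value found when each array was left out in turn. Cd14 lay below the lower quartile of all genes.

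Tlr2, the shared chain of the lipopeptide receptors, was clearly above the median of all genes, and Tlr1, its partner for triacylated lipopeptides, was near the bottom of the scale. Tlr2 read 7.94, 8.15 and 7.83 in the arrays labelled Mx1Cre, against 7.54, 7.80 and 7.72 in those labelled flox/flox. Every Mx1Cre value lay above every flox/flox value, by as little as 0.03 log2 units. This amounted to 0.29 ± 0.11 log2 units (SE), a 1.22-fold difference of the same size as that of Cd180 in the other direction. Tlr1 read 4.99, 5.50 and 5.15 in the arrays labelled Mx1Cre and 5.50, 5.01 and 5.14 in those labelled flox/flox, which fully overlapped (-0.0060 ± 0.15 log2 units, SE). Tlr6, the partner for diacylated lipopeptides and not a member, averaged 6.63 ± 0.24 in the Mx1Cre arrays and 6.91 ± 0.18 in the flox/flox arrays (SD, n = 3 each) and did not pass (limma adjusted p = 0.342).

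The endosomal receptors of nucleic acids overlapped between the labels. Tlr7, which recognises single-stranded RNA, read 5.35, 5.86 and 5.46 in the arrays labelled Mx1Cre and 5.29, 6.05 and 5.20 in those labelled flox/flox. In each label replicate 2 was the highest, and the difference was 0.04 ± 0.21 log2 units (SE). Tlr9, which recognises unmethylated CpG DNA, read 6.47, 6.11 and 6.19 in the arrays labelled Mx1Cre and 6.41, 6.53 and 6.08 in those labelled flox/flox, with a difference of -0.08 ± 0.14 log2 units (SE). Tlr7 lay below the lower quartile and Tlr9 between it and the median.

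Myd88, the adaptor that all Toll-like receptors except TLR3 use, had the lowest standard error of the members. It read 8.05, 8.28 and 8.17 in the arrays labelled Mx1Cre and 8.32, 8.19 and 8.18 in those labelled flox/flox. It differed by -0.06 ± 0.095 log2 units (SE), and the level stood above the upper quartile of all genes. Cd180, Tlr2 and Myd88 were thus the members well measured under both labels, while Ly96, Cd14, Tlr1, Tlr4, Tlr7 and Tlr9 lay below the median level and give no firm account of a change in either direction.

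**Figure D1:**
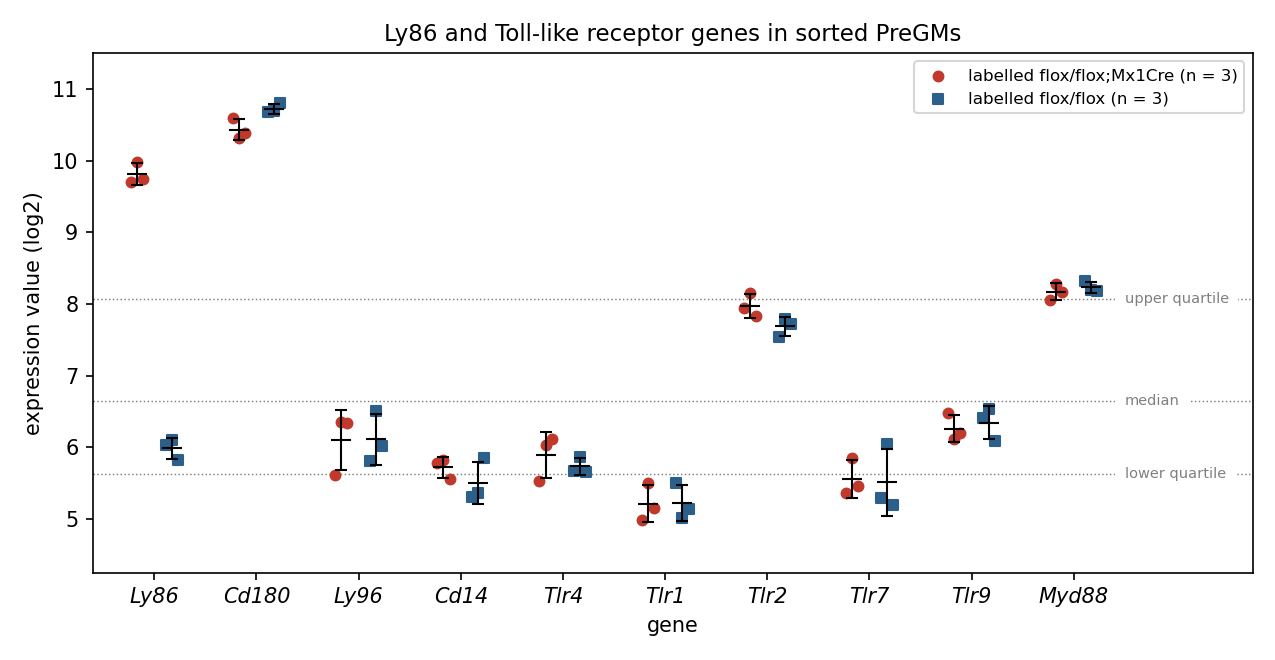
Expression value (log2) of each member gene on each array, with Mx1Cre arrays as circles, flox/flox arrays as squares, and bars for mean ± SD (n = 3 each); dotted lines are the quartiles and median over all genes. Ly86 sits near 9.81 in the Mx1Cre arrays and 5.98 in the flox/flox arrays, whereas the means of every other member lie within 0.29 of each other.

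Of the members, 1 of 10, Ly86, was called at an adjusted p under 0.05 in the limma fit over all genes, where 4.91% of all genes were called. Since Ly86 was chosen for this difference, nothing is read from that count. The values of the labels did not overlap for 3 of 10, Ly86, Tlr2 and Cd180, where they did not overlap for 21.6% of all genes. Of the members 5 had a positive and 5 a negative difference, with a median of 0.02 log2 units against -0.01 over all genes. The 9 members other than Ly86 had differences between -0.29 and 0.29, with standard errors between 0.095 and 0.22. The smallest difference called among the 19937 genes was 0.33, so differences of the members' size were below what these 6 arrays could call. The absence of a call therefore does not show that those 9 genes were alike under both labels.

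**Figure D2:**
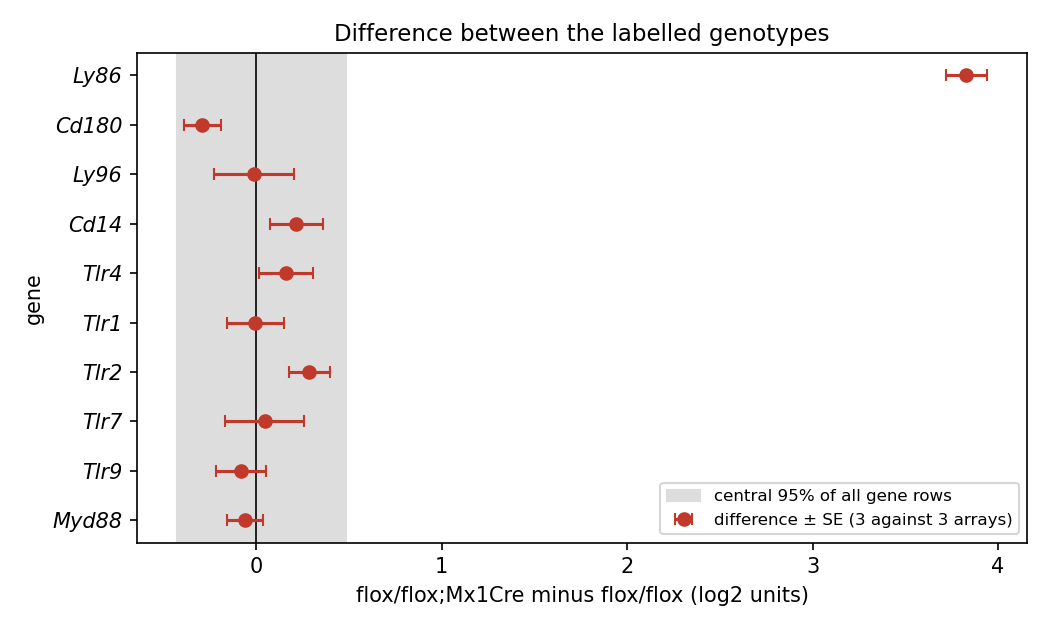
Difference between the labels for each member (flox/flox;Mx1Cre minus flox/flox, log2 units), with bars for limma's standard error and a grey band for the central 95% of all genes. Ly86 at 3.83 lies far to the right of the band, whose ends are at -0.43 and 0.49, and the other 9 genes lie inside it.

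Replicates of a label also differed among themselves. Mx1Cre replicate 2 was the highest Mx1Cre array for 7 of 10 members and Mx1Cre replicate 1 the lowest for 6. Among the flox/flox arrays, replicate 2 was the highest for 6 of 10. Leaving out any 1 array kept the sign of the difference for Ly86, Cd180, Cd14, Tlr2, Tlr4 and Myd88, but not for Ly96, Tlr1, Tlr7 and Tlr9.

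The genes whose 6 values were most like those of Ly86, by Pearson correlation among 585 genes with a range of at least 1 log2 unit, were Tfec (r = 0.998), Csf1r (0.996), Anxa3 (0.996), Irf8 (0.995) and Mcpt8 (0.995). Tfec encodes a transcription factor of the MiT family, Csf1r the M-CSF receptor, Anxa3 an annexin, Irf8 a regulator of monocyte and dendritic cell fate, and Mcpt8 a basophil protease. These correlations mostly restate the gap between the labels, since the arrays of a label share their genotype. Among the other members, Tlr2 came closest to Ly86 (r = 0.784), Cd180 ran opposite (r = -0.868) and Ly96 and Tlr1 were near 0 (0.018 each).

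**Figure D3:**
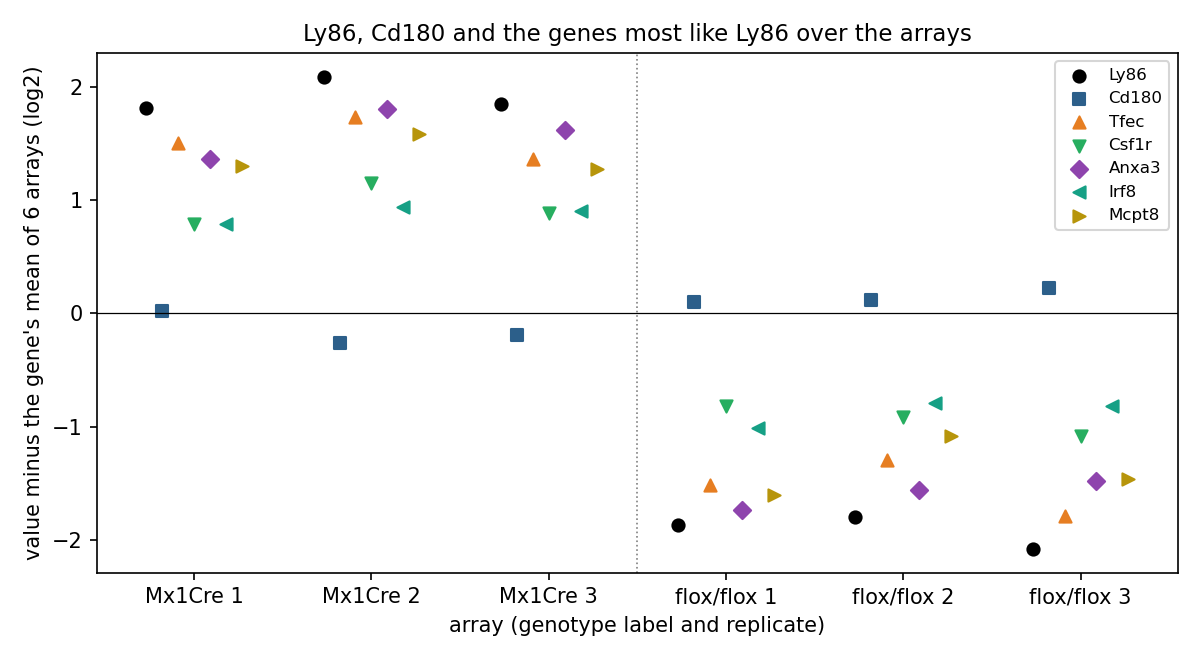
Value of each gene minus its own mean over the 6 arrays (log2), for Ly86, Cd180 and the 5 genes most like Ly86, by array. The 5 genes lie on the same side of 0 as Ly86 on every array, and Cd180 lies on the opposite side on every array but Mx1Cre replicate 1, where it is close to 0.

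Some genes of the monocyte, macrophage and neutrophil marker lists were also higher in the arrays labelled Mx1Cre. Their part in the difference of Ly86 was not tested. Of 16 measured monocyte and macrophage markers, 9 were higher (56.2%, against 2.63% of all genes), 0 lower and 7 did not pass. Their median difference was 0.62 log2 units. Among those that did not pass, Itgam differed by -0.21 and Fn1 by 0.04 log2 units. The mean level of that list ran from 7.51 to 7.61 in the Mx1Cre arrays and from 6.37 to 6.57 in the flox/flox arrays. Adgre1, which encodes F4/80, Vcan and Ms4a7 were below the lower quartile of all genes. Csf1r, the M-CSF receptor, was 3.67-fold higher and F13a1, a coagulation factor of monocytes, 6.87-fold higher (limma adjusted p = 1.97e-05 and 4.66e-06). Of 11 neutrophil markers 5 were higher (45.5%, against 2.63% of all genes), 0 lower and 6 did not pass. Those higher were Cxcr2, S100a8, S100a9, Ngp and Csf3r, while Ly6g, Camp, Ltf, Mmp8, Mmp9 and Retnlg did not pass. The mean level of the neutrophil list was 6.39 to 6.78 in the Mx1Cre arrays and 5.50 to 5.65 in the flox/flox arrays. Ly6g, Mmp8 and Retnlg lay below the lower quartile. In sorted bulk samples a larger number of cells of a type and more RNA per cell cannot be told apart.

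Markers of other cell types that carry these receptors were counted in the same way. Of 13 B cell markers none passed (0 higher and 0 lower), although Cd180 is best known from B cells. Their mean level was 6.40 to 6.45 in the Mx1Cre arrays and 6.43 to 6.62 in the flox/flox arrays, with Cd79a, Ms4a1 and Ebf1 below the lower quartile. Of 14 plasmacytoid and conventional dendritic cell markers, Irf8 and Clec9a were higher (14.3%, against 2.63% of all genes) and 0 lower, at mean levels of 6.55 to 6.71 in the Mx1Cre arrays and 6.24 to 6.43 in the flox/flox arrays. Siglech, a marker of the plasmacytoid cells that use TLR7 and TLR9, averaged 6.15 ± 0.088 in the Mx1Cre arrays and 6.23 ± 0.13 in the flox/flox arrays (SD, n = 3 each), and Ccr9, Xcr1 and Clec9a were below the lower quartile. Of 11 T and NK cell markers 0 were called in either direction.

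Around the receptors, 126 genes of 7 pathway lists were measured, and these were tested in the same limma fit. Of them 8 were higher in the arrays labelled Mx1Cre (6.35%, against 2.63% of all genes) and 11 lower (8.73%, against 2.28%), and their median difference was 0.00025 log2 units against -0.01 over all genes. The counts fell without some arrays. The higher genes numbered 5 without Mx1Cre replicate 2 or flox/flox replicate 3, and the lower genes 6 or 7 without any array but Mx1Cre replicate 1. With all 34760 probe sets in the fit, 3 higher genes (Unc93b1, Lbp and Ctss) and 2 lower genes (Usp18 and Clec4e) passed.

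**Figure D4:**
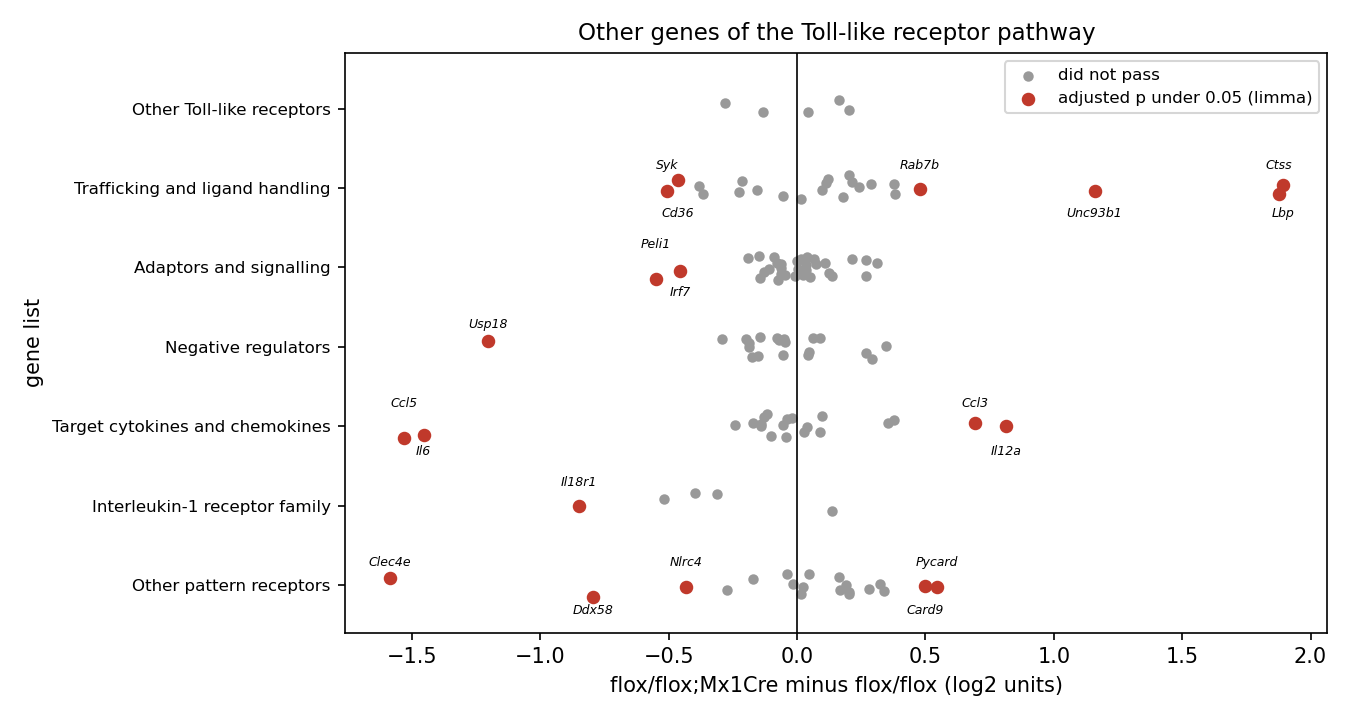
Difference between the labels (flox/flox;Mx1Cre minus flox/flox, log2 units) for every measured gene of 7 lists, 1 point per gene with random vertical spread, and named red points for genes with a limma adjusted p under 0.05. Lbp (1.89), Ctss (1.88) and Unc93b1 (1.16) lie farthest to the right, and Clec4e (-1.59), Ccl5 (-1.53) and Il6 (-1.45) farthest to the left.

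Of 23 measured genes that deliver receptors and ligands, 4 rose (17.4%, against 2.63% of all genes) and 2 fell (8.7%, against 2.28%), with a median of 0.12 log2 units. Unc93b1, the chaperone that carries the nucleic acid receptors to endosomes, read 7.67, 7.50 and 7.37 in the arrays labelled Mx1Cre and 6.37, 6.37 and 6.32 in those labelled flox/flox. The labels were 1.0 log2 unit apart at their nearest values, and the gene rose 2.23-fold (limma adjusted p = 0.000154). Among the nucleic acid receptors, the members Tlr7 and Tlr9 differed by 0.04 and -0.08 log2 units. Tlr3, Tlr8 and Tlr13, which are not members, differed by 0.17, 0.04 and -0.13 log2 units.

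Lbp, the lipopolysaccharide-binding protein that loads CD14, read 8.11, 8.67 and 8.19 in the arrays labelled Mx1Cre and 6.17, 6.66 and 6.46 in those labelled flox/flox. It rose 3.71-fold (limma adjusted p = 0.000178), with 1.45 log2 units between the nearest values of the labels. Ctss, cathepsin S, which can cleave endosomal Toll-like receptors and also stands in the monocyte list, rose 3.67-fold (9.63 ± 0.24 in the Mx1Cre arrays and 7.75 ± 0.47 in the flox/flox arrays, SD, n = 3 each, limma adjusted p = 0.000695). The fourth gene that rose, Rab7b, lies outside the naming rule given below and was added after its value was seen. The lists and that rule were themselves chosen with earlier results of these data known. Rab7b encodes a GTPase of late endosomes and was dim (5.41 ± 0.11 in the Mx1Cre arrays and 4.93 ± 0.035 in the flox/flox arrays, SD, n = 3 each, limma adjusted p = 0.0143).

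Syk, a tyrosine kinase downstream of several immune receptors, fell by 0.51 log2 units and Cd36, a scavenger receptor that helps TLR2, fell by 0.46 from a level below the lower quartile (limma adjusted p = 0.0440 and 0.0493). Cd36 did not pass when any array was left out, and Syk passed only without flox/flox replicate 2. The chaperones Hsp90b1 and Cnpy3, which fold Toll-like receptors, did not pass (0.21 and 0.29 log2 units, limma adjusted p = 0.300 and 0.111).

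Of 5 other measured Toll-like receptor genes none passed (0 higher and 0 lower at an adjusted p under 0.05 in limma). Tlr3, the receptor of double-stranded RNA and so of the injected pIC, averaged 5.67 ± 0.058 in the arrays labelled Mx1Cre and 5.51 ± 0.12 in those labelled flox/flox (SD, n = 3 each, limma adjusted p = 0.453). Tlr8, Tlr12 and Tlr13, of which the mouse TLR12 recognises profilin and TLR13 bacterial ribosomal RNA, differed by 0.04, 0.20 and -0.13 log2 units. Tlr3, Tlr8 and Tlr13 lay below the lower quartile of all genes.

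The next list held adaptors, kinases, ubiquitin enzymes and transcription factors that act below the receptors. Of its 32 measured genes 0 rose and 2 fell (6.25%, against 2.28% of all genes), with a median of 0.00025 log2 units. Peli1, a ubiquitin ligase that acts on IRAK kinases, read 8.46, 8.48 and 8.62 in the arrays labelled Mx1Cre and 9.16, 8.97 and 9.09 in those labelled flox/flox, and fell 1.46-fold (limma adjusted p = 0.00799). Irf7, the interferon regulatory factor that acts below TLR7 and TLR9 and is itself induced by interferon, fell 1.37-fold, with 5.92 ± 0.043 in the Mx1Cre arrays and 6.38 ± 0.079 in the flox/flox arrays (SD, n = 3 each, limma adjusted p = 0.0148). Irf7 did not pass without Mx1Cre replicate 3, flox/flox replicate 1 or flox/flox replicate 2.

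The adaptor genes Tirap, Ticam1 and Ticam2 differed by 0.02, -0.06 and 0.27 log2 units, the kinase genes Irak1 and Irak2 by 0.14 and -0.06, and Traf6, a ubiquitin ligase of the pathway, by -0.09. None of these 6 passed, nor did Irf5, a factor that MyD88 signalling activates (0.27 log2 units, limma adjusted p = 0.115). Together with Myd88 they give 8 signalling genes with differences between -0.09 and 0.27 log2 units. That range leaves out Irf7, given above, at -0.46, and Irak3, given below, at 0.34 log2 units.

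Of 20 negative regulators 0 rose and 1 fell (5.0%, against 2.28% of all genes), with a median of -0.06 log2 units. Usp18, a protease that dampens interferon signalling, fell 2.30-fold (limma adjusted p = 0.00229). Irak3, an inhibitory kinase family member of myeloid cells, averaged 8.71 ± 0.14 in the arrays labelled Mx1Cre and 8.37 ± 0.28 in those labelled flox/flox and did not pass (SD, n = 3 each, limma adjusted p = 0.249).

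Genes that Toll-like receptor signalling can induce went both ways. Of 21 cytokine, chemokine and co-stimulatory genes, 2 rose (9.52%, against 2.63% of all genes) and 2 fell (9.52%, against 2.28%). Their median difference was -0.04 log2 units. Il6 read 4.65, 5.73 and 5.81 in the arrays labelled Mx1Cre and 7.14, 6.48 and 6.93 in those labelled flox/flox, and fell 2.74-fold (limma adjusted p = 0.0149). Ccl5, a chemokine also made by T and NK cells, read 7.99, 8.89 and 8.84 in the arrays labelled Mx1Cre and 10.16, 10.24 and 9.91 in those labelled flox/flox, and fell 2.89-fold (limma adjusted p = 0.00266). Mx1Cre replicate 1 was the lowest array for both genes.

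Il12a, the p35 chain of interleukin-12, rose 1.76-fold and Ccl3, a chemokine of macrophages and progenitors, 1.62-fold (limma adjusted p = 0.00719 and 0.00562), each with no overlap between the labels. Il6 did not pass without flox/flox replicate 1 or flox/flox replicate 3.

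Of 5 measured genes of the interleukin-1 receptor family, whose signalling receptors also use MyD88, 1 fell (20.0%, against 2.28% of all genes) and 0 rose. The gene that fell was Il18r1, by 0.85 log2 units (limma adjusted p = 0.0216). It did not pass without Mx1Cre replicate 2 or 3 or flox/flox replicate 2 or 3. Of 20 genes of other pattern recognition, 2 rose and 3 fell, where 2.63% of all genes were called higher and 2.28% lower. Clec4e, which encodes the glycolipid receptor Mincle, read 8.98, 9.01 and 9.09 in the arrays labelled Mx1Cre and 10.80, 10.67 and 10.37 in those labelled flox/flox, and fell 3.00-fold (limma adjusted p = 5.22e-05).

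Ddx58, the RNA sensor RIG-I, fell 1.74-fold and Nlrc4, an inflammasome protein, 1.35-fold (limma adjusted p = 0.00930 and 0.0255). The inflammasome adaptor gene Pycard rose 1.46-fold and Card9, an adaptor below Mincle and other C-type lectin receptors, 1.41-fold (limma adjusted p = 0.0273 and 0.0386). Nlrc4, Pycard and Card9 each lost their call without most single arrays, passing without 1, 2 and 2 of the 6.

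**Figure D5:**
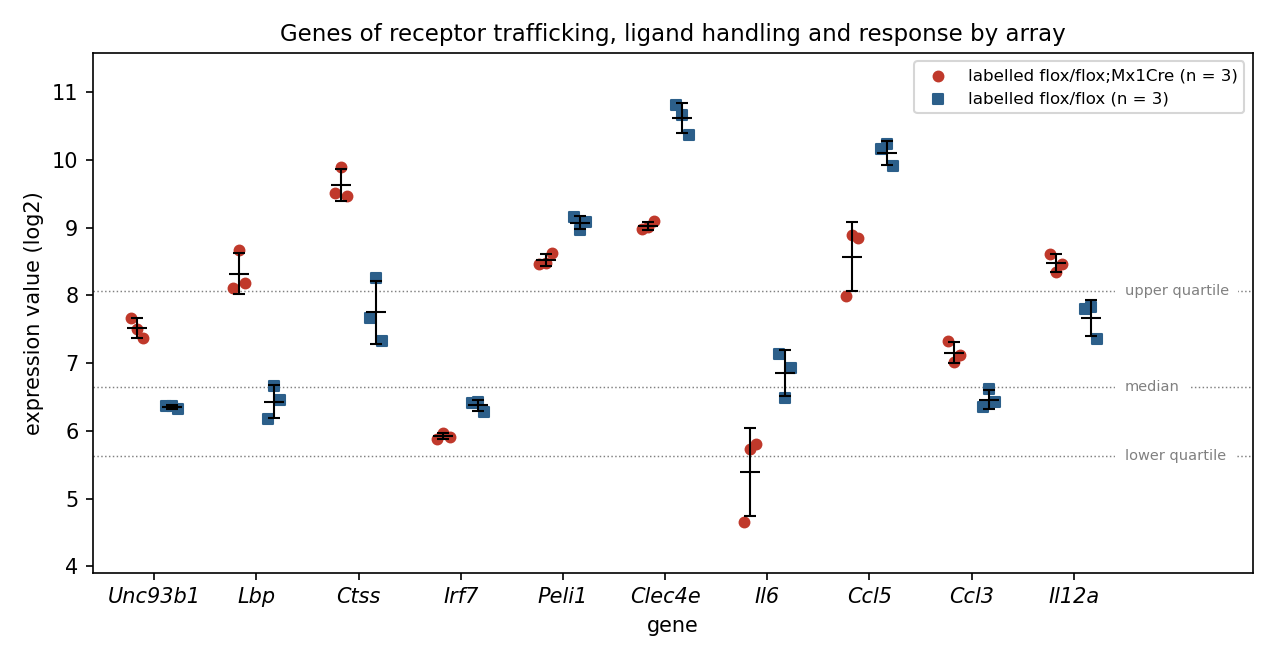
Expression value (log2) on each array for 10 pathway genes that passed, with Mx1Cre arrays as circles, flox/flox arrays as squares and bars for mean ± SD (n = 3 each); dotted lines are the quartiles and median over all genes. Unc93b1, Lbp, Ctss, Ccl3 and Il12a are higher and Irf7, Peli1, Clec4e, Il6 and Ccl5 lower in every Mx1Cre array than in any flox/flox array.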

How the data were processed

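Each probe set has a deposited log2 value on each array. RMA and affy are named in the submitters' processing notes, and versions, chip definition and genome build were not stated there. RMA pulls dim probe sets towards a floor, which shrinks the folds of dim genes. Array medians over all 34760 probe sets ran from 6.43 to 6.55.

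Of these probe sets 21640 carry a single gene symbol in the platform annotation, which can be old. The set with the highest mean stood for a gene, giving 19937 genes. Differences (Mx1Cre minus flox/flox) were fitted with limma 3.58.1 in R 4.3.3 (lmFit, eBayes, no block) with Benjamini-Hochberg adjustment across the genes, and a gene passed at an adjusted p under 0.05. The test was tested on simulated data.

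The members, the lists and the naming rule were chosen with earlier results of these data known. The rule names all members, some pathway genes whatever their p, up to 3 higher and 3 lower called genes of each list and the 5 genes most like Ly86. Listed genes without a probe set of their own, 12 of 138 in the pathway lists, were not analysed here. Replicates are separate mice, per the design text. The number of arrays limits the precision. Promoter windows are from RefSeq (GRCm38.p6), and gene coordinates are not given because the files name no build.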

Additional observations from a re-analysis of the deposited data

How the results depend on the processing

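The difference of Ly86 stayed between 3.74 and 3.89 log2 units over 13 alternatives, which its choice as the largest difference fixes in part. It was the 1 member called, and 0 others were called in these or at either other threshold. The other members' values moved by less than the spread between replicates in all 111 recalculations. Leaving out 1 of 3 arrays cannot move a value beyond that spread, and most other settings leave the difference itself unchanged. Nothing is therefore read from that count. Pathway genes called higher and lower numbered 8 and 11, and all genes called 979. With all probe sets in the fit these counts were 3, 2 and 244, and at an adjusted p under 0.01 they were 5, 5 and 389. Leaving out 1 array gave 5 to 9 higher, 6 to 9 lower and 538 to 785 in all (fewer arrays also lower the power), and the total was 636 without Mx1Cre replicate 2, 538 without Mx1Cre replicate 3, 541 without flox/flox replicate 1 and 547 without flox/flox replicate 3. With the replicate number as a block they were 7, 11 and 1089. The numbers were not taken as pairs, because the labels do not say that a number marks a shared litter or day. Same-numbered arrays correlated in their deviations at 0.188, 0.0515 and 0.174, which does not settle whether they were paired. Not every array correlated best with its own number.

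Of 419 values of named pathway genes, 363 kept direction and call, 51 lost the call and 5 turned sign, all of genes that did not pass. Leaving out 1 array turned Tlr8 (-0.0093 without flox/flox replicate 3, up to 0.104 without another array), Tirap (-0.015 without Mx1Cre replicate 1 and -0.0081 without flox/flox replicate 2, up to 0.050 otherwise), Irak2 (0.0062 without Mx1Cre replicate 3, down to -0.148 otherwise) and Traf6 (0.034 without Mx1Cre replicate 1, down to -0.156 otherwise). Cd36 and Card9 also lost their calls with the replicate block, and Cd36, Pycard and Card9 with median centring. The filter on dim genes kept 4 of the 10 members, and the other 6 have no value under it.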
